A study of Danio rerio with 2 samples.

Results

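To describe how genes of ribosome assembly differed in the liver after man1a2 knockdown, 60 listed symbols of ribosome biogenesis were looked up in the count tables of 1 control and 1 man1a2 morphant library. Of these, 57 symbols matched 58 Ensembl zebrafish gene IDs among the 31953 IDs listed, and all 58 had at least 10 reads over both libraries. The members are a list of symbols that was drawn up with earlier results of these data known, with no threshold on their reads. A symbol was matched without regard to case, and without a final a or b where it was otherwise absent, so mycb matched the 2 IDs under MYC. The symbols imp3, def and pes matched no ID by this rule. Gene names are spelled as in the name table, which gives many zebrafish genes the upper-case human symbol.

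Both libraries were made from larval zebrafish liver taken 5 days after fertilization, with RNA from 3 batches pooled before sequencing. Control larvae were uninjected, so the effect of injection itself cannot be told apart from that of man1a2 knockdown. Morphants had been injected at the 1-cell stage with a morpholino (MO), an antisense oligonucleotide that blocks translation or splicing, against man1a2, a Golgi mannosidase of N-glycan trimming. The labels name several transgenic lines and doses but not the line, MO or dose behind the sequenced pool, and they give 100 livers without saying whether this is per batch or in all. The man1a2 MO sequences from the labels are shown because they are the treatment, with capitals marking in the first the complement of the start codon and in the second the complement of GTGAGT, a usual start of an intron.
man1a2-ATG MO: ccggcgtggtCATattttgatgatc
man1a2-splicing MO: aagaatgtaaACTCACctctctgat

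Ribosomes are built mainly in the nucleolus. RNA polymerase I transcribes the ribosomal RNA precursor, small nucleolar ribonucleoproteins (snoRNPs) modify it, and the small-subunit processome and the large-subunit assembly factors cut and fold it around ribosomal proteins. MYC transcription factors are known activators of many of these genes. In zebrafish, loss of def or bms1 is known to stunt growth of the liver and other digestive organs.

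Counts totalled 19658335 in the control and 19783886 in the morphant library. There was 1 library per group, so no difference could be set against the spread between pools. Each gene was instead given an exact binomial test of its reads, 2-sided, against the share set by the median-of-ratios size factors, with Benjamini-Hochberg adjustment over the 15732 genes with at least 10 reads. A gene was called past this read test when its adjusted p was under 0.05 and it differed by at least 1.2-fold (0.26 on the log2 scale). The test and all 95% Clopper-Pearson intervals cover counting error only, and compare these libraries, not the conditions. In bulk RNA, more cells of a type and more RNA per cell cannot be told apart. Levels were not compared between genes, since reads also depend on transcript length.

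Ribosome biogenesis genes were higher in the morphant library nearly throughout, by small and similar amounts. The log2 ratio of morphant over control was above 0 for 57 of the 58 members, against 51.2% of all genes tested, and DDX21 was the exception. With TMM or upper-quartile scaling utp3 was also below 0, and with total counts all 58 were above it. The median log2 ratio was 0.26, a fold of 1.2, against 0.01 over all 15732 genes tested. In all, 29 members (50%) rose past the read test, beside 12.5% of all genes tested, and 0 fell, beside 12.6%. Among all genes in the read range of the members, 17.9% rose and 14.9% fell. Summed over members, reads went from 43107 to 56265, or from 2193 to 2844 CPM (reads scaled to a library total of 1000000).

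The calls rested on the choice of fold and on the assumed variation. The interval lay above 0 for 42 members (72.4%), beside 21% of all genes tested. In the read range of the members it lay above 0 for 2213 of 7636 genes. For 10 members the adjusted p was under 0.05 with a fold under 1.2. With total counts as the scaling, 44 members were past the test as higher, beside 20% of all genes, and 0 as lower, beside 8.89%. In edgeR's exact test, with pools of 1 group taken to vary by a coefficient of variation of 0.1, 1 member (an ID under MYC) was past the threshold, beside 2.83% of all genes higher. With 0.2 it was 0 members, beside 0.718%, and with the dispersion estimated from both libraries as 1 group it was 0, beside 0.388%.

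The members also differed little from each other. Their log2 ratios had an SD of 0.14 over the 58 IDs and of 0.12 without the 2 MYC IDs. Among the 7636 genes whose mean reads lay in the range of the members, the SD was 0.45 and the median 0.04. The median distance from the middle to the end of an interval was 0.18 for the members and 0.21 for those genes. A small spread was not particular to the members. The SD was 0.18 for 37 mitochondrial and 0.21 for 79 cytosolic ribosomal protein IDs. Lower and upper quartiles were 0.17 and 0.24 for the cytosolic IDs, beside 0.19 and 0.33 for the members. Members ranged from 108 reads for POLR1D in controls to 6938 for ncl in morphants.

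**Figure D1:**
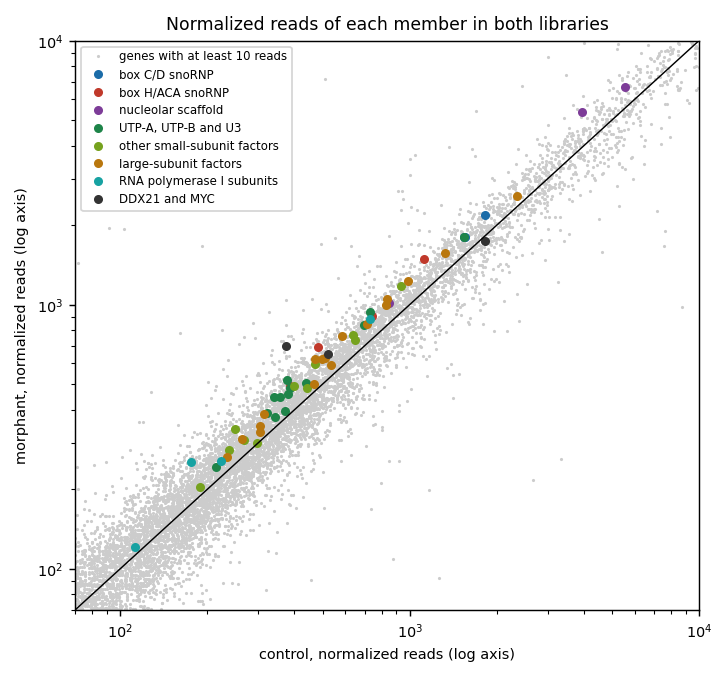
Normalized reads in the control (x axis) and morphant (y axis) library, both on log axes that cover the range of the members, with 1 point per gene, members coloured by group and other genes with at least 10 reads in grey. The line marks equal levels, and 57 of the 58 members lie above it (56 with TMM or upper-quartile scaling and 58 with total counts).

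The nucleolar assembly genes comprised listed genes of the snoRNP cores and of abundant nucleolar proteins. The interval of each of these 10 genes lay above 0. Box C/D snoRNPs guide 2'-O-methylation of ribosomal RNA. FBL, the methyltransferase of this particle, went from 1753 to 2263 reads, with a log2 ratio of 0.26 (0.17 to 0.35). The scaffold protein genes NOP56 and NOP58 went from 1500 to 1877 and from 1480 to 1873 reads, with log2 ratios of 0.22 (0.12 to 0.31) and 0.23 (0.13 to 0.33). All 3 intervals overlapped. Their exact binomial adjusted p values were 1.48e-07 for FBL, 0.000119 for NOP56 and 3.14e-05 for NOP58, but every fold was under 1.2. Thus 0 of the 3 were past the test as higher, beside 12.5% of all genes tested. With total counts it was 3 of 3, beside 20%.

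All 4 listed genes of the box H/ACA snoRNP, which guides pseudouridylation, rose past the read test, beside 12.5% of all genes tested. The pseudouridine synthase DKC1 rose from 1083 to 1543 reads (log2 ratio 0.40, 0.29 to 0.52, exact binomial adjusted p = 2.33e-11). NHP2 rose from 463 to 715 reads (0.52, 0.35 to 0.69, exact binomial adjusted p = 1.62e-08), the largest log2 ratio among the assembly genes. GAR1 went from 715 to 944 reads and NOP10 from 372 to 510, with log2 ratios of 0.29 and 0.35. Summed reads gave a log2 ratio of 0.39 (interval 0.32 to 0.46) for the H/ACA genes and 0.24 (0.18 to 0.29) for the C/D genes. These intervals of summed reads did not overlap. Genes of either particle outside the member list were left out of this comparison. By gene, the intervals of DKC1, GAR1 (0.15 to 0.44) and NOP10 (0.15 to 0.54) overlapped those of all 3 C/D genes. That of NHP2 lay above those of NOP56 and NOP58 and met that of FBL at 0.35. Reads of H/ACA genes per C/D read went from 0.556 in the control to 0.617 in the morphant library, a ratio that no scaling alters.

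Of the genes of abundant nucleolar proteins, npm1a (nucleophosmin, a histone chaperone and nucleolar scaffold) rose from 3796 to 5570 reads (log2 ratio 0.45, 0.39 to 0.51, exact binomial adjusted p = 9.59e-48). The gene ncl (nucleolin, which binds ribosomal RNA) had the most reads of all members, 5352 and 6938, and rose by a log2 ratio of 0.27 (interval 0.22 to 0.32, exact binomial adjusted p = 5.78e-23). Since its fold lay at 1.2, ncl was under the minimum fold with TMM and upper-quartile scaling, at log2 ratios of 0.25 and 0.24. The snoRNP chaperone nolc1 went from 818 to 1057 reads, a log2 ratio of 0.26 just under the minimum fold. The interval of npm1a overlapped neither that of ncl nor that of FBL.

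**Figure D2:**
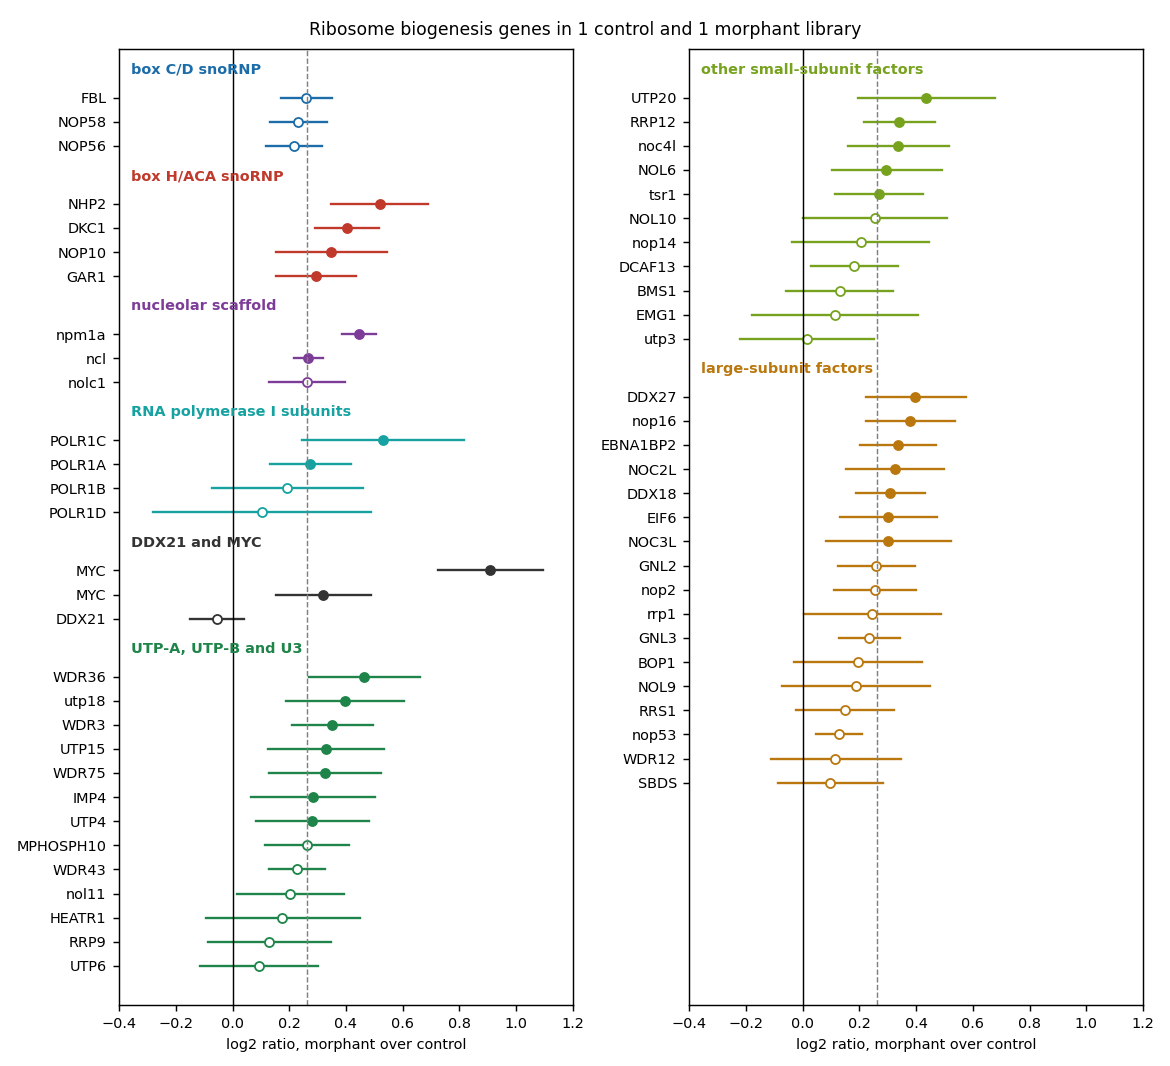
Log2 ratio of morphant over control (x axis) for each of the 58 members by group, with 95% Clopper-Pearson intervals for counting error. Filled points are past the read test, the solid line marks 0 and the dashed line the 1.2-fold minimum, and the points of 57 members lie to the right of 0 (utp3 moves to the left with TMM or upper-quartile scaling, and DDX21 to the right with total counts).

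Processing factors made up 41 of the 58 IDs. Of these, 19 rose past the read test (46.3%, beside 12.5% of all genes tested) and 0 fell, beside 12.6%. In the read range of the members 17.9% of genes rose. The other 22 processing factors were not past the test. Log2 ratios ran from 0.01 to 0.46, with a median of 0.26. Processing factors act in the small-subunit processome, which assembles on the 5' part of the precursor, on later small-subunit precursors and on the large-subunit precursors.

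The first set of 13 genes held proteins of the UTP-A and UTP-B complexes and of the U3 snoRNP. Of this set, 7 rose past the test (53.8%, beside 12.5% of all genes tested), with a median of 0.28. In UTP-A, which binds the nascent precursor, UTP15 (343 to 464 reads), WDR75 (371 to 501) and UTP4 (365 to 478) rose by log2 ratios of 0.33, 0.33 and 0.28. WDR43 had the most reads of UTP-A, 1487 and 1874, at a log2 ratio of 0.23 (interval 0.13 to 0.33). The intervals of nol11 (0.02 to 0.39) and HEATR1 (-0.09 to 0.45) were wider than that of WDR43. WDR43, nol11 and HEATR1 were not past the test. In UTP-B, WDR36 rose from 363 to 540 reads (log2 ratio 0.46, 0.27 to 0.66, exact binomial adjusted p = 1.68e-05), the largest of the processing factors. The UTP-B genes WDR3 (705 to 970 reads, log2 ratio 0.35) and utp18 (328 to 465, 0.40) rose as well. UTP6, of the same complex, had 356 and 409 reads, and its log2 ratio was 0.09 (-0.12 to 0.30). The UTP-B genes among the members thus ranged more widely than the box C/D genes, though the intervals of UTP6 and WDR36 overlapped. Genes of the complex outside the member list were left out of this comparison. The UTP-B members also had fewer reads and wider intervals than the box C/D genes, so counting error alone spreads them more. Among genes of U3 proteins, IMP4 rose from 309 to 405 reads (0.28), MPHOSPH10 went from 672 to 868 (0.26, just under the minimum fold) and RRP9 from 330 to 389 (0.13, interval -0.09 to 0.35). With upper-quartile scaling UTP4 and IMP4 were both at 0.25, under the minimum fold.

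Of the 11 other small-subunit factors, 5 rose past the test (45.5%, beside 12.5% of all genes tested), with a median of 0.25. RRP12, a factor of small-subunit maturation and export, rose from 898 to 1225 reads (log2 ratio 0.34, 0.21 to 0.47, exact binomial adjusted p = 7.90e-07). UTP20 (240 to 350 reads, log2 ratio 0.44), noc4l (455 to 619, 0.34), NOL6 (385 to 509, 0.29) and the late factor tsr1 (614 to 797, 0.27) made up the rest of those past the test. With TMM and upper-quartile scaling tsr1 was under the minimum fold, at 0.25 and 0.24. The GTPase gene BMS1 had 425 and 501 reads, and its log2 ratio was 0.13 (-0.06 to 0.32), so no difference was detectable at this depth. The methyltransferase gene EMG1 (182 and 212 reads, 0.11) and utp3 (286 and 311 reads, 0.01) were closest to level, and utp3 fell just below 0 with TMM or upper-quartile scaling. DCAF13 (0.18), nop14 (0.20) and NOL10 (0.25) were not past the test either.

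Of the 17 large-subunit factors, 7 rose past the test (41.2%, beside 12.5% of all genes tested). The other 10 had log2 ratios from 0.10 to 0.26, and the median of all 17 was 0.25. The helicase genes DDX18 (955 to 1274 reads) and DDX27 (455 to 646) rose by log2 ratios of 0.31 (interval 0.19 to 0.43) and 0.40 (0.22 to 0.57). EBNA1BP2 rose from 804 to 1093 reads (0.34, 0.20 to 0.47, exact binomial adjusted p = 5.22e-06) and nop16 from 563 to 789 (0.38, interval 0.22 to 0.54). NOC2L (480 to 648 reads) and NOC3L (302 to 401), whose yeast counterparts carry precursors through the nucleus, rose by 0.33 and 0.30 on the log2 scale. EIF6, which keeps the new large subunit from joining the small one, rose from 493 to 655 reads (0.30, interval 0.13 to 0.47). SBDS, which takes part in its release, had 451 and 520 reads, with a log2 ratio of 0.10 (interval -0.09 to 0.28). The intervals of EIF6 and SBDS overlapped.

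Several large-subunit genes lay just under the minimum fold. The GTPase genes GNL2 (800 to 1032 reads) and GNL3 (nucleostemin, 1280 to 1623) had log2 ratios of 0.26 and 0.23, and the rRNA methyltransferase gene nop2 (684 to 879) 0.25. All 3 had intervals above 0. Of the PeBoW complex, BOP1 (292 to 360 reads) and WDR12 (293 to 342) had log2 ratios of 0.19 and 0.12, with intervals of -0.03 to 0.42 and -0.11 to 0.35. PES1, the human symbol of the third protein of that complex, is not a member by the symbol rule, and its ID had 1132 and 1483 reads (log2 ratio 0.28, interval 0.17 to 0.39). Likewise UTP25, for which RefSeq lists def as a synonym, had 278 and 345 reads (0.20, interval -0.03 to 0.44). Adding both IDs gave 30 members past the test. The other members, nop53, rrp1, RRS1 and the RNA kinase gene NOL9, had log2 ratios from 0.13 to 0.24, and nop53, with 2267 and 2669 reads, had an interval of 0.05 to 0.21.

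Of the 4 RNA polymerase I subunit genes, 2 rose past the read test (50%, beside 12.5% of all genes tested and 17.9% in the read range of the members). POLR1A, the largest catalytic subunit, rose from 705 to 919 reads (log2 ratio 0.27, 0.13 to 0.42, exact binomial adjusted p = 0.000896), and was under the minimum fold with TMM and upper-quartile scaling, at 0.26 and 0.25. POLR1B, the second catalytic subunit, had 215 and 265 reads (0.19, interval -0.07 to 0.46). POLR1C, which polymerases I and III share, rose from 169 to 263 reads (0.53, 0.25 to 0.82, exact binomial adjusted p = 0.00117). POLR1D, its partner in both enzymes, had 108 and 125 reads (0.10, interval -0.28 to 0.49). The intervals of all 4 subunits overlapped, and POLR1B, POLR1C and POLR1D were among the members with the fewest reads.

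The remaining members act on transcription. The MYC ID ENSDARG00000007241 rose from 359 to 726 reads (log2 ratio 0.91, 0.72 to 1.09, exact binomial adjusted p = 3.69e-22), the largest difference of any member and the only one of 1.5-fold or more. In edgeR's exact test its adjusted p was 0.00227 when pools were taken to vary by a coefficient of variation of 0.1, and 0.602 (unadjusted 0.0325) when by 0.2. The MYC ID ENSDARG00000045695 rose from 504 to 678 reads (0.32, 0.15 to 0.49, exact binomial adjusted p = 0.001). The intervals of the 2 IDs did not overlap. The name table does not say which of them is mycb. DDX21, a helicase of polymerase I transcription and precursor processing, had 1751 and 1816 reads, a log2 ratio of -0.06 (interval -0.15 to 0.04) that was 0.04 with total counts. Its interval lay below those of FBL, ncl and npm1a.

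More of the polymerase I machinery was followed in a further list, for which 13 of 19 symbols were matched. It held 13 IDs with at least 10 reads. Of these, 5 rose past the read test (38.5%, beside 12.5% of all genes tested) and 1 fell (7.69%, beside 12.6%). The gene ubtf encodes UBF, the factor that keeps ribosomal DNA open for polymerase I. It fell from 1396 to 954 reads (log2 ratio -0.66, -0.78 to -0.54, exact binomial adjusted p = 2.45e-26) and had the most reads of the list. With total counts its log2 ratio was -0.56. RRN3, which brings the polymerase to the promoter, had 330 and 343 reads (-0.05, interval -0.27 to 0.17). TAF1A (-0.01) and TAF1B (0.18), subunits of the promoter selectivity factor, were not past the test. The small subunits shared by nuclear polymerases POLR2H (151 to 245 reads, log2 ratio 0.59), POLR2K (64 to 115, 0.73) and POLR2L (114 to 171, 0.48) rose, as did polr1e (197 to 278, 0.39). The shared subunits POLR2E (570 and 725 reads, 0.24) and POLR2F (327 and 415, 0.24) were not past the test. Neither were POLR1F (245 and 265 reads, 0.01) and polr1g (125 and 146, 0.12). POLR1H rose from 57 to 93 reads (0.59) with an exact binomial adjusted p = 0.0499, at the edge of the threshold. When pools were taken to vary by 0.1, edgeR's exact test left ubtf alone of these 13 past an adjusted p of 0.05. At 0.2 its adjusted p was 0.982, and with the dispersion from both libraries as 1 group it was 1, so the call was lost.

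Of the other MYC family and partner genes, 12 IDs in all, 2 rose past the test (16.7%, near the 12.5% of all genes tested) and 0 fell. MYCN rose 2.14-fold, from 21 to 49 reads (interval of the log2 ratio 0.35 to 1.93) and MYCL from 378 to 532 (0.38, interval 0.19 to 0.58). MAX, the dimerization partner of MYC, had 593 and 687 reads (0.10, interval -0.06 to 0.27). The MYC antagonist mxd1 had 38 and 22 reads, a log2 ratio of -0.88 with an exact binomial adjusted p = 0.0735. Other listed antagonists lay on both sides of 0. MXD4 was at -0.44, MXI1 at 0.07, the IDs under MNT at 0.10 and 0.27, and MXD3 at 0.48. The listed genes mych (0.17), mycla (-0.03) and MLX (-0.14) were close to level. Like the antagonists, they were not past the test.

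**Figure D3:**
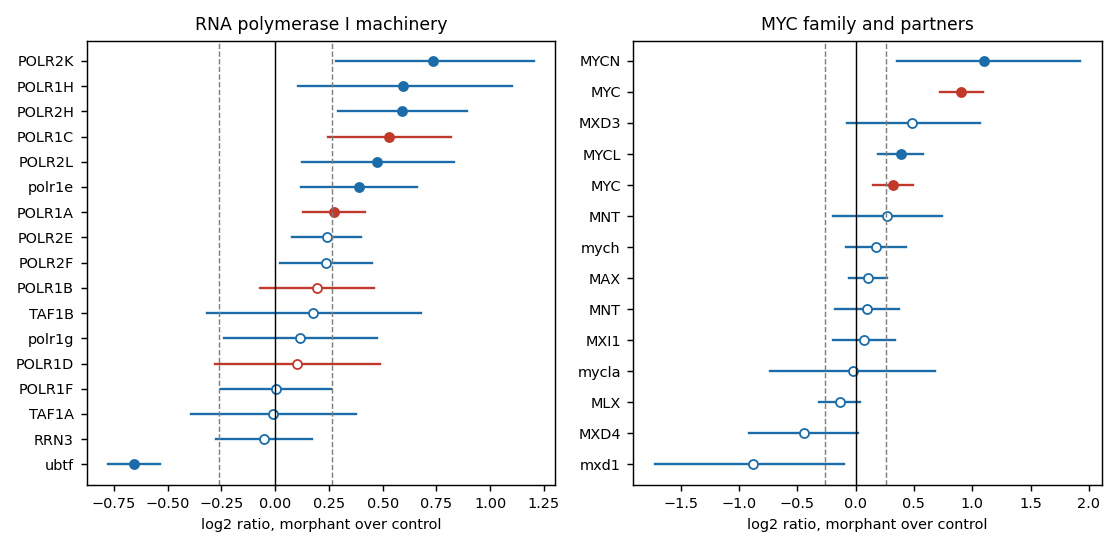
Log2 ratio of morphant over control (x axes) with 95% Clopper-Pearson intervals for counting error, for RNA polymerase I machinery (left) and the MYC family (right), members in red and other genes in blue. Filled points are past the read test and dashed lines mark 1.2-fold, and ubtf is the filled point left of 0, at -0.66.

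A further list of 92 ribosome biogenesis IDs, all with at least 10 reads, had a median above 0 as well. Of these, 25 rose past the read test (27.2%, beside 12.5% of all genes tested), 1 fell (1.09%, beside 12.6%) and 66 were not past it. With total counts 46 were higher, beside 20% of all genes tested. With a coefficient of variation of 0.2 the count was 0, beside 0.718%. Their median log2 ratio was 0.20, 78 were above 0, and their SD was 0.23 against 0.14 for the members, with median interval half-widths of 0.25 and 0.18. Ranked by the interval bound nearest 0, NAT10, an acetyltransferase of 18S ribosomal RNA, led with 314 and 535 reads (0.66, interval 0.46 to 0.87). The gene tcof1 (treacle, a partner of UBF) rose from 118 to 211 reads (0.73, interval 0.40 to 1.07), and DDX56 from 326 to 520 (0.57, interval 0.36 to 0.77). EXOSC1, a cap subunit of the RNA exosome, fell from 129 to 93 reads (-0.58, interval -0.98 to -0.18). Its fellow subunits EXOSC9 (190 to 311 reads, 0.60) and EXOSC7 (51 to 87, 0.66) rose. The other 8 exosome genes of the list (EXOSC2, exosc3, EXOSC4, EXOSC5, EXOSC6, EXOSC8, EXOSC10 and DIS3) were not past the test, with log2 ratios from -0.06 to 0.36. After EXOSC1 the lowest interval that excluded 0 was that of RCL1, with 993 and 931 reads (-0.20, interval -0.33 to -0.07).

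Ribosomal protein genes lay slightly above 0, mostly by less than the minimum fold. The list took symbols of RPL or RPS followed by A, by P and a digit, or by a number with at most a short suffix. Of 79 tested IDs, 78 were above 0, with a median log2 ratio of 0.20. Past the read test, 14 rose (17.7%, beside 12.5% of all genes tested), while 65 were not past it. In the read range of the members 17.9% of genes rose, but many ribosomal protein IDs had more reads than that range holds. Their summed share of all counts was 5.65% in the control and 6.93% in the morphant library. For 37 mitochondrial ribosomal protein IDs the median was 0.29, with 20 higher past the test (54.1%) and 0 lower. Among the members 50% were higher, with a median of 0.26.

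**Figure D4:**
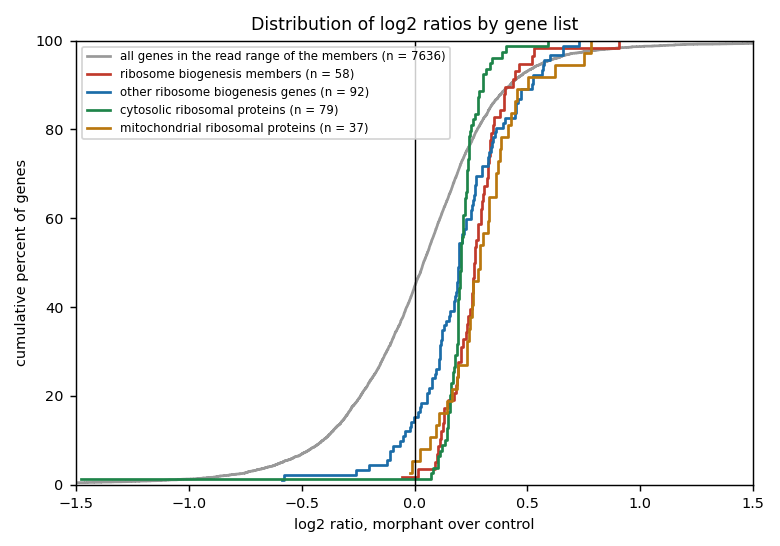
Cumulative percent of genes (y axis) by log2 ratio of morphant over control (x axis) for the 58 members, the further biogenesis list, cytosolic and mitochondrial ribosomal proteins, and the 7636 genes in the read range of the members. The 4 ribosome lists cross their middle at 0.20 to 0.29 and the grey curve at 0.04.

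Markers of other cells and of division moved in the same libraries. Of 16 exocrine pancreas IDs tested, 15 rose (median log2 ratio 4.07), and the summed reads of that list went from 53.3 to 628 CPM, with ptf1a (listed under PTF1A) at 0 reads in controls and 2 in morphants. Of 21 proliferation IDs tested, 17 rose (median 0.59, summed 488 to 730 CPM). For epidermis 7 of 14 rose (61.9 to 142 CPM). For leukocytes 11 of 17 fell (173 to 27.6 CPM), a sum that rested on 1 ID under MFAP4 (131 to 11.4 CPM) and went from 42.5 to 16.2 CPM without it. For erythroid cells 7 of 10 fell (120 to 85.2 CPM, and 55.3 to 28.6 CPM without hbae3). Hepatocyte markers, which check the labelled tissue, took 22.6% of control and 21.5% of morphant counts, with 12 of 25 lower past the test and 0 higher. For intestine 2 of 8 fell (25%), for endothelium 3 of 14 (21.4%) and for biliary cells 3 of 13 (23.1%). For skeletal muscle 1 of 3 rose (33.3%), which was myhz1.3 with only 2 and 13 reads. Not past the test were myhz1.1 (50 and 82 reads) and myhz1.2 (64 and 52). Of all genes tested, 12.5% rose and 12.6% fell. Symbols were matched for 16 of 23 exocrine pancreas, 20 of 20 proliferation, 16 of 17 epidermis, 20 of 23 leukocyte, 13 of 17 erythroid and 25 of 26 hepatocyte markers. The part of these cells in the differences of the ribosome biogenesis genes was not tested.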

How the data were processed

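RNA with a poly-A tail from pooled livers was made into 1 strand-marked library per group. The authors deposited raw counts of reads per Ensembl gene, without normalization. The submitters' processing notes name FastQC, DESeq2 and the build GRCz10, and the aligner, counting program and treatment of multiply matching reads are not given in the sources used here. Paralogs may therefore share reads. Symbols came from a name table that paired 26121 of 31953 IDs (81.7%). No genome, promoter or protein sequence was used, so the planned motif search was not run.

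Counts were read into R 4.3.3 and scaled with the size factors of DESeq2 1.42.0. Log2 ratios carry a pseudocount of 0.5 and intervals none. With 1 library per group edgeR's quasi-likelihood test and DESeq2's test cannot be fitted, so an exact binomial test, doubling the smaller tail, was used with thresholds taken from the study's methods (adjusted p under 0.05, fold of 1.2). edgeR 4.0.16 gave TMM and upper-quartile factors and exact tests with an assumed coefficient of variation of 0.1, 0.2 or 0.4, or with DESeq2's fitted dispersion when both libraries form 1 group. The read filter was also set to 1 and to 100 reads, the pseudocount to 1, and the minimum fold to 2 or left out. The floor of 3 counts is 0.153 CPM in the control and 0.152 CPM in the morphant library.

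The members, groups and lists were chosen with earlier results of these data known. Any member could be named. Of each other list, the rule took 3 IDs on each side of 0, ranked by the interval bound nearest 0. TAF1A, TAF1B, polr1e, POLR1F, polr1g, POLR1H, POLR2E, POLR2F and the exosome genes other than EXOSC1 were chosen after their values were seen. So were MFAP4, hbae3, PES1, UTP25, PTF1A, mych, mycla, MXI1, MXD3 and MNT. Some genes of the lists examined are not reported here.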

Additional observations from a re-analysis of the deposited data

How the results depend on the processing

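Members higher past the read test numbered 29 with the settings used above, beside 12.5% of all genes tested. They numbered 26 with TMM and 24 with upper-quartile factors, where the share of all genes is not given here. With total counts, which adds 0.10 to the log2 ratios, they numbered 44, beside 20%. A minimum fold of 2 left 0. Assumed coefficients of variation of 0.1, 0.2 and 0.4 left 1, 0 and 0, and the dispersion from both libraries as 1 group left 0, beside 1 member at an unadjusted p under 0.05 with 0.2 and 1 with that dispersion. No setting tried put a member past the threshold as lower. The further biogenesis list had 46 higher with total counts, beside 20% of all genes tested. With a coefficient of variation of 0.2 it had 0 higher, beside 0.718%, and 0 lower. The median of the members was 0.24 with upper-quartile factors and 0.36 with total counts. With total counts the group medians were 0.33 for box C/D, 0.47 for H/ACA, 0.37 for nucleolar scaffold, 0.38 for UTP-A, UTP-B and U3, 0.35 for both other small-subunit and large-subunit factors, and 0.42 for DDX21 with MYC. The gene utp3 had log2 ratios of -0.0021 with TMM and -0.01 with upper-quartile factors, and DDX21 0.04 with total counts. Leaving out the MYC IDs or adding UTP25 and PES1, chosen after seeing the data, gave 27 and 30 members past the test. No paired analysis was possible because there was 1 library per group. Depth limits members with few reads, as the POLR1D interval (-0.28 to 0.49) shows.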
